A study of Mus musculus with 26 samples.

Results

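The fibroblast growth factor (FGF) receptors and a set of FGF ligands listed as glial were followed as 7 genes of the 54532 in the deposited table. They are the receptor tyrosine kinases Fgfr1, Fgfr2 and Fgfr3, the receptor-like Fgfrl1, and the ligands Fgf1, Fgf2 and Fgf9. They were chosen by symbol, through the mouse Ensembl gene identifier of each row, and each symbol matched 1 row. No measured value entered the rule, although the members were chosen with earlier results of these data known.

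FGF ligands bind their receptors together with heparan sulphate at the cell surface, which pairs receptor chains and switches on their kinase inside the cell. The signal runs through docking proteins to the Ras-MAPK cascade, raises transcription factors of the Etv family and is damped by Sprouty proteins and MAPK phosphatases. Fgfr3 is widely used as a marker of astrocytes in the brain and spinal cord, Fgfr2 is prominent in oligodendrocytes, and Fgf2 is a growth factor for astrocytes and neural stem cells. Fgf1 and Fgf2 lack a classical secretion signal, whereas Fgf9 is secreted and was first described as a factor made by glioma cells.

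The libraries were made from poly(A) RNA of untreated mice and titled day 0. Retinal RNA was sequenced after an immunoprecipitation meant to enrich astrocyte RNA (retina IP, 6 libraries) and without it (retina input, 6 libraries). Immunoprecipitated RNA also came from astrocytes of the optic nerve head, where the axons leave the eye (ONH IP, 7 libraries), and of the myelinated nerve behind it, the optic nerve proper (ONP IP, 7 libraries). Strain, age, sex, the tagged allele and its driver, and whether a library is 1 animal or a pool, are not given in the sources used here, so p-values measure the spread between libraries, which may be technical. By the labels, batch 2 held all 12 retinal libraries and replicate 7 of ONH and of ONP, the bridging libraries, which the series' design text describes as prepared with the retinal ones. Batch 1 held the other 12 optic nerve libraries, which come from an earlier study.

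Total counts per library ranged from 11164619 to 27431026. Summed over the 12 genes of an astrocyte marker list, the level ranged from 6739 to 35082 CPM in retina IP, 4037 to 6648 CPM in retina input, 7196 to 34403 CPM in ONH IP and 12850 to 41447 CPM in ONP IP, where CPM is counts per 1000000 counts after scaling for library composition. In retina IP, 10 of the 12 astrocyte markers averaged at least 10 CPM and Gjb6 alone was under 1 CPM. The markers differed among themselves. Gfap averaged 1702 CPM in retina IP, 313 CPM in retina input, 11007 CPM in ONH IP and 13992 CPM in ONP IP. Aqp4 averaged 57.5, 55.5, 481 and 989 CPM in the same order. Estimates were higher in retina IP for 5 of the 12 against ONH IP and for 5 of the 12 against ONP IP. The optic nerve IP libraries also carried oligodendrocyte RNA. The 12 oligodendrocyte markers summed to between 27802 and 73234 CPM in ONH IP and between 36394 and 124687 CPM in ONP IP, against 54.7 to 162 CPM in retina IP. Retinal ganglion cell markers ran the other way, with median sums of 3812 CPM in retina IP, 121 CPM in ONH IP and 80.2 CPM in ONP IP. The ONH bridging library stood apart in rod RNA, with 55531 CPM summed over 13 rod markers, against 111 to 1000 CPM in the other ONH libraries. Counts of 4 Y-linked genes summed to at least 702 in every batch 1 library and to at most 1 in every batch 2 library. By these counts, batch 1 libraries held male RNA and batch 2 libraries did not. Sex and batch therefore cannot be told apart, and the retinal libraries differ from the batch 1 nerve libraries in both. Retina input replicates 1 and 2 had the largest shares of mitochondrially encoded counts, 8.16% and 15.2%. In bulk RNA, fewer cells of a type and less RNA per cell cannot be told apart.

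Retina IP held almost no Fgfr3 and little Fgfr2, the receptors that were abundant in both parts of the optic nerve, and it held more Fgf1 and Fgf9. Against retina input, Fgf1 and Fgf9 had log2 fold changes of -0.04 and -0.55. The test called 0 of 15181 genes in that comparison, so the lack of a call says nothing about them. Ganglion cell and Muller glia markers were also present in retina IP. Of the 7 genes, 4 passed the test against ONH IP: Fgfr2 and Fgfr3 were lower in retina IP, and Fgf1 and Fgf9 were higher. All 4 also passed against ONP IP, in the same directions. Fgfr1 and Fgfrl1 had lower estimates in the retina that did not pass, and Fgf2 was near 0 in both comparisons. Called genes had an adjusted p (Benjamini-Hochberg) under 0.05 in edgeR's quasi-likelihood test. By that rule 33.8% of all 16355 genes tested were called against ONH IP and 32.8% against ONP IP, so 4 of 7 stands against a background of about 1 gene in 3. Fgfr3, 1 of these 4, passed the filter on low counts only through the optic nerve libraries. Its direction was therefore fixed, and its call adds no support to the count. The 2 comparisons share the retinal libraries and are not independent of each other.

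**Figure D1:**
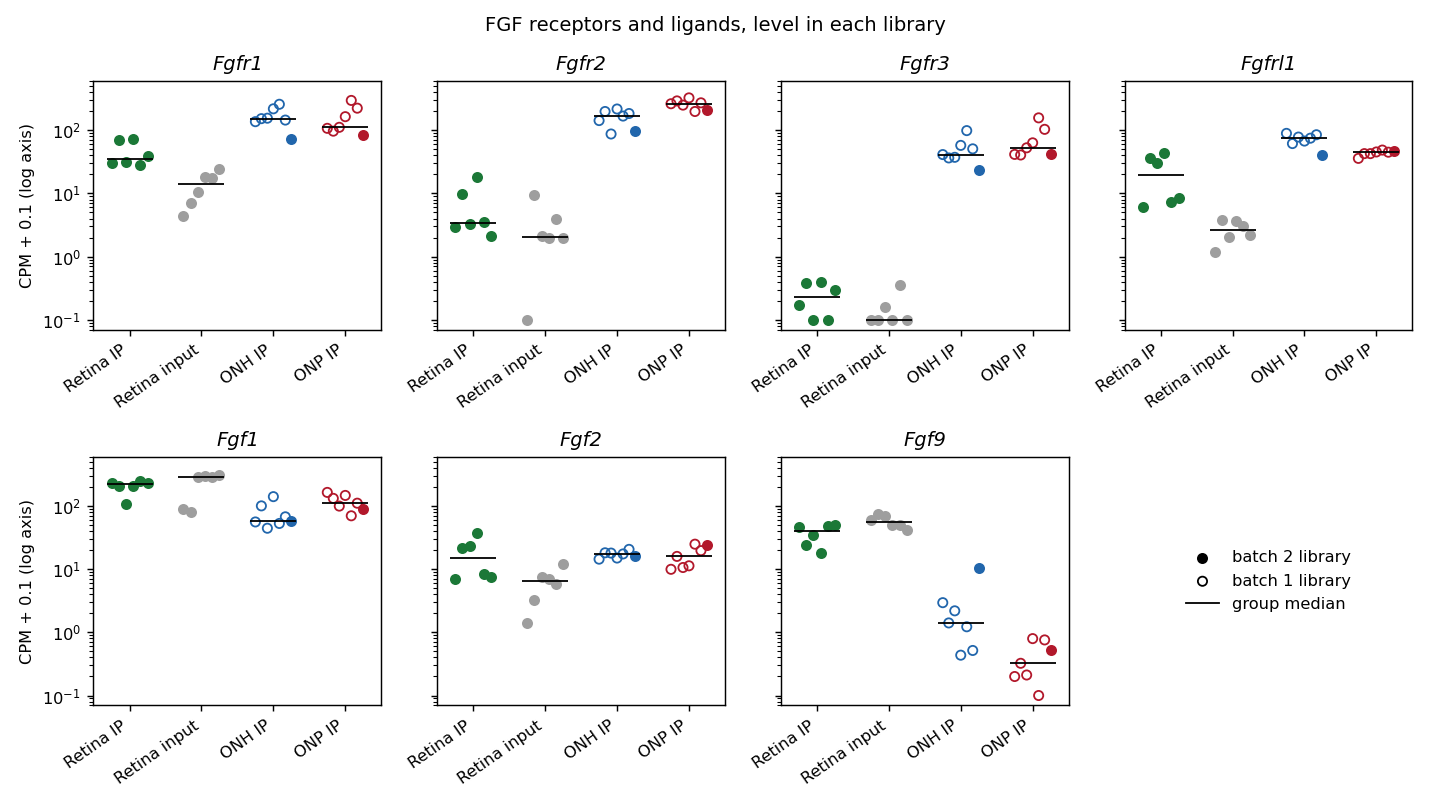
Level of each of the 7 genes in each of the 26 libraries, in CPM with 0.1 added, on a log axis. Filled points are batch 2 libraries, open points batch 1 libraries, and the line is the group median. Fgfr3 lies at or under 0.299 CPM in every retina IP library, while the ONH and ONP libraries lie between 23.1 and 157 CPM.

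Fgfr3 (ENSMUSG00000054252, mm10 chromosome 5, 33721674 to 33737068, plus strand) was the most uneven of the 7. Its level ranged from 0 to 0.299 CPM with a median of 0.133 in retina IP, from 23.1 to 98.5 CPM with a median of 41.1 in ONH IP, and from 40.4 to 157 CPM with a median of 52.6 in ONP IP. The 6 retina IP libraries together held 19 counts of Fgfr3, against 6465 counts in the 7 ONH libraries and 9493 in the 7 ONP libraries. No retinal library came near any optic nerve library. The log2 fold change was -7.38 (SE 0.631, adjusted p = 5.16e-08) against ONH IP and -7.94 (SE 0.628, adjusted p = 1.31e-08) against ONP IP. Both calls held with every single library left out. Within batch 2 alone, with 1 bridging library a region, the estimates were -7.10 (adjusted p = 0.00681) and -7.88 (adjusted p = 0.00336). Fgfr3 passed the filter on low counts only through the optic nerve libraries, so its direction was fixed once it entered the test. Its p-values add nothing to the levels.

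Fgfr2 (ENSMUSG00000030849, chromosome 7, minus strand) followed, at a higher floor. Levels in retina IP ranged from 2.01 to 18.2 CPM with a median of 3.29, in ONH IP from 87.0 to 216 CPM with a median of 167, and in ONP IP from 198 to 325 CPM with a median of 262. The highest retinal library, IP replicate 4, lay well under the lowest ONH library, and the groups did not overlap. The fitted difference, as a log2 fold change, was -4.05 (SE 0.543, adjusted p = 1.64e-05) against ONH IP and -4.80 (SE 0.536, adjusted p = 1.36e-06) against ONP IP. Within batch 2 alone they were -3.69 (adjusted p = 0.0653) and -4.74 (adjusted p = 0.0187). GENCODE M21 stretches Fgfr2 from 130162451 to 133123350 through a long transcript, and 314 bp of its exons are shared with Ctbp2, so counts of the 2 genes may be split between them there. Oligodendrocyte markers, like Fgfr2, were higher in both nerve groups than in retina IP, and within the nerve groups they moved with Fgfr2 in part. In ONP IP the library with the lowest oligodendrocyte sum, replicate 5 at 36394 CPM, also had the lowest Fgfr2, and in ONH IP the 3 libraries with the highest sums, replicates 4, 2 and 6, had the 3 highest Fgfr2 levels. Other libraries broke this order. ONP replicate 6, with a sum of 85963 CPM, had 271 CPM of Fgfr2, against 262 CPM in replicate 1 with 90004 CPM. ONH replicate 5, with a sum of 30202 CPM, had 167 CPM of Fgfr2, against 142 CPM in replicate 1 with 34814 CPM. The part of oligodendrocyte RNA in the difference between retina and nerve was not tested.

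The windows before the starts of Fgfr3, Fgfr2 and Fgf9 are shown because these genes had the widest gaps between retina and nerve, Fgfr3 and Fgfr2 in one direction and Fgf9 in the other. Each is the 250 bases before a start that RefSeq lists on GRCm38.p6, read 5′ to 3′ on the gene's strand, in lower case with each match to the GC box GGGCGG, on either strand, in capitals. The first is chr5:33721474-33721723 on the plus strand, the second chr7:130266809-130267058 on the minus strand and the third chr14:58072436-58072685 on the plus strand.
Fgfr3: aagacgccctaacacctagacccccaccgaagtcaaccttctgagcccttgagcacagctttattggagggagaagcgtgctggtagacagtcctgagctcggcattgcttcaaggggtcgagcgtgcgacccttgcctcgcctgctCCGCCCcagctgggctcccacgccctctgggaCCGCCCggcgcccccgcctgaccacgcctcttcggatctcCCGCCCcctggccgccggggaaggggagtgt
Fgfr2: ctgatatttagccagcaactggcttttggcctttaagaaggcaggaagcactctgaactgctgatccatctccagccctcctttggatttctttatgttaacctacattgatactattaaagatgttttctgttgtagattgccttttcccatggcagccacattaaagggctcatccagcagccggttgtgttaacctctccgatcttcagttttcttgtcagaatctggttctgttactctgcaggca
Fgf9: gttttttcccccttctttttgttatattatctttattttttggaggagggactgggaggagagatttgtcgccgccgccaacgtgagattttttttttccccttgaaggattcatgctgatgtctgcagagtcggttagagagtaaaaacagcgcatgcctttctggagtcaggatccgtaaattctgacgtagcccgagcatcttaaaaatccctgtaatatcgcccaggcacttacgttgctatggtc

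The Fgfr3 window held 3 GC boxes and was 66.8% G and C, whereas the Fgfr2 window held none at 44.0% and the Fgf9 window none at 44.8%. The median of 32851 such windows was 52.4%, and 32.7% of them held a GC box. CCAAT, also searched on both strands, was found once in the Fgfr3 window, in neither of the others, and in 33.8% of all windows. TATAAA was in none of the 3 and in 12.4% of all. RefSeq lists a second Fgfr3 start, whose window, chr5:33722056-33722305, was 72.8% G and C and held 2 GC boxes but no CCAAT. These letters describe the listed windows only. Of the 7 genes, 5 matched the RefSeq promoter table, and Fgfr1 and Fgf1 did not.

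Fgfr1 (ENSMUSG00000031565, chromosome 8, 25513654 to 25575718, plus strand) had the largest share of receptor level per kilobase in every retina IP library. Its level ranged from 28.6 to 73.0 CPM with a median of 34.9 in retina IP, from 73.3 to 257 CPM with a median of 152 in ONH IP and from 83.5 to 296 CPM with a median of 111 in ONP IP. Every retinal library lay under every optic nerve library, but the highest, replicate 4 at 73.0 CPM, was next to the ONH bridging library at 73.3 CPM. With the batch term, the log2 fold change was -0.80 (SE 0.435, adjusted p = 0.162) against ONH IP and -0.75 (SE 0.429, adjusted p = 0.190) against ONP IP. Without the batch term it was -1.82 (adjusted p = 0.000180) and -1.75 (adjusted p = 0.000226), so the call rests on whether batch is fitted. Both bridging libraries had the lowest Fgfr1 and the lowest astrocyte marker sum of their region, 7196 CPM in ONH and 12850 CPM in ONP. Among optic nerve libraries, replicate 5 had both the highest Fgfr1 and the highest astrocyte sum, 34403 CPM in ONH and 41447 CPM in ONP.

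Fgfrl1 (ENSMUSG00000008090, chromosome 5, 108692382 to 108706924, plus strand) binds FGF but lacks a kinase domain. It ranged from 6.08 to 44.1 CPM with a median of 19.5 in retina IP, from 40.3 to 89.0 CPM with a median of 74.7 in ONH IP and from 35.7 to 48.4 CPM with a median of 44.8 in ONP IP. Retina IP replicates 2, 3 and 4 had 36.4, 30.7 and 44.1 CPM, while replicates 1, 5 and 6 had 6.08, 7.31 and 8.22 CPM. The same 3 libraries had the 3 highest astrocyte marker sums, 20476 to 35082 CPM, against 6739 to 9731 CPM in the other 3. The log2 fold change was -1.35 (SE 0.560, adjusted p = 0.0676) against ONH IP and -0.69 (SE 0.540, adjusted p = 0.349) against ONP IP. Against ONH IP it passed when retina IP replicate 2 (adjusted p = 0.0383) or replicate 4 (adjusted p = 0.0225) was left out. It passed without the batch term as well, at -1.64 (adjusted p = 0.00122) against ONH IP and -0.96 (adjusted p = 0.0359) against ONP IP.

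Fgf1 (ENSMUSG00000036585, chromosome 18, 38838673 to 38929472, minus strand), which can bind all FGF receptors, was the most abundant ligand in all 4 groups. It ranged from 106 to 247 CPM with a median of 219 in retina IP, from 44.2 to 140.1 CPM with a median of 56.8 in ONH IP and from 69.7 to 164 CPM with a median of 110.4 in ONP IP. Retina IP replicate 3, at 106 CPM, was the only retinal IP library that overlapped the optic nerve ranges. As a log2 fold change the difference was 1.88 (SE 0.443, adjusted p = 0.00300) against ONH IP and 1.22 (SE 0.426, adjusted p = 0.0334) against ONP IP. The call against ONH IP held with each library left out. That against ONP IP was lost without ONH replicate 7 (adjusted p = 0.113) and without ONP replicate 7 (adjusted p = 0.228), both bridging libraries. Fits of batch 2 only or of only the 2 groups compared ended the calls against ONH IP (adjusted p = 0.0674 and 0.0612) and against ONP IP (adjusted p = 0.104 and 0.0693), and a fit of all 26 libraries ended the one against ONP IP (adjusted p = 0.107).

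Fgf9 (ENSMUSG00000021974, chromosome 14, 58070547 to 58112720, plus strand) was a retinal transcript in these data. It ranged from 17.8 to 50.1 CPM with a median of 40.5 in retina IP, from 0.335 to 10.2 CPM with a median of 1.31 in ONH IP and from 0 to 0.695 CPM with a median of 0.223 in ONP IP. The retinal libraries did not overlap those of either optic nerve group. The 7 ONP libraries together held 33 counts, against 4674 in the 6 retina IP libraries. The log2 fold change was 2.42 (SE 0.904, adjusted p = 0.0444) against ONH IP and 5.08 (SE 1.10, adjusted p = 0.00153) against ONP IP. The call against ONP IP was lost without ONP replicate 7 (4.14, adjusted p = 0.0585). The call against ONH IP was lost without any 1 of 9 libraries. These were retina IP replicates 1, 5 and 6 (adjusted p = 0.0619, 0.0623 and 0.0632), ONH replicates 2, 5 and 7 (adjusted p = 0.0532, 0.0511 and 0.0578) and ONP replicates 2, 6 and 7 (adjusted p = 0.0527, 0.0509 and 0.275). Without ONH replicate 7 the estimate was 4.16, larger than with it, and without ONP replicate 7 it was 1.87. No filter on low counts (adjusted p = 0.0516), batch 2 only (adjusted p = 0.130) and only the 2 groups compared (adjusted p = 0.219) ended it as well. The ONH bridging library had the most Fgf9 and rod RNA of its group, at 10.2 CPM and 55531 CPM. The other ONH libraries had 0.335 to 2.84 CPM of Fgf9. Of these, replicate 6 had the highest rod sum, 1000 CPM, but 0.416 CPM of Fgf9. All 13 rod markers were called lower in retina IP than in ONH IP, where 21.1% of all genes tested were. That fit's batch term rests on the bridging libraries, of which the ONH one held the most rod RNA. By level, the median rod sum was higher in retina IP, at 1257 CPM against 692 CPM in ONH IP. Rod sums in retina IP ran from 758 to 3168 CPM. Ganglion cell markers were higher in retina IP, 9 of 11 called against ONH IP and 11 of 11 against ONP IP. Of all genes tested, 12.7% and 12.9% were called higher. In ONP IP the markers Pou4f1, Slc17a6 and Isl1 averaged under 1 CPM. The part of either in the Fgf9 differences was not tested.

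Fgf2 (ENSMUSG00000037225, chromosome 3, 37348346 to 37410108, plus strand) had the most similar medians of the ligands in retina and nerve. It ranged from 6.97 to 36.9 CPM with a median of 14.995 in retina IP, from 14.3 to 20.4 CPM with a median of 17.3 in ONH IP and from 9.83 to 24.7 CPM with a median of 15.8 in ONP IP. The groups overlapped throughout, and the retinal spread was the widest, with replicates 2, 3 and 4 at 21.8, 23.3 and 36.9 CPM and the other 3 libraries under 8.2 CPM. On the log2 scale the difference was -0.19 (SE 0.543, adjusted p = 0.808) against ONH IP and -0.14 (SE 0.524, adjusted p = 0.866) against ONP IP. Its sign turned under other settings in both comparisons. Of its exonic bases, 640 lie opposite exons of Nudt6, which averaged 59.0 counts a library. Whether the counting used strand is not given in the sources used here, so reads of the 2 genes may not be told apart in that stretch.

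**Figure D2:**
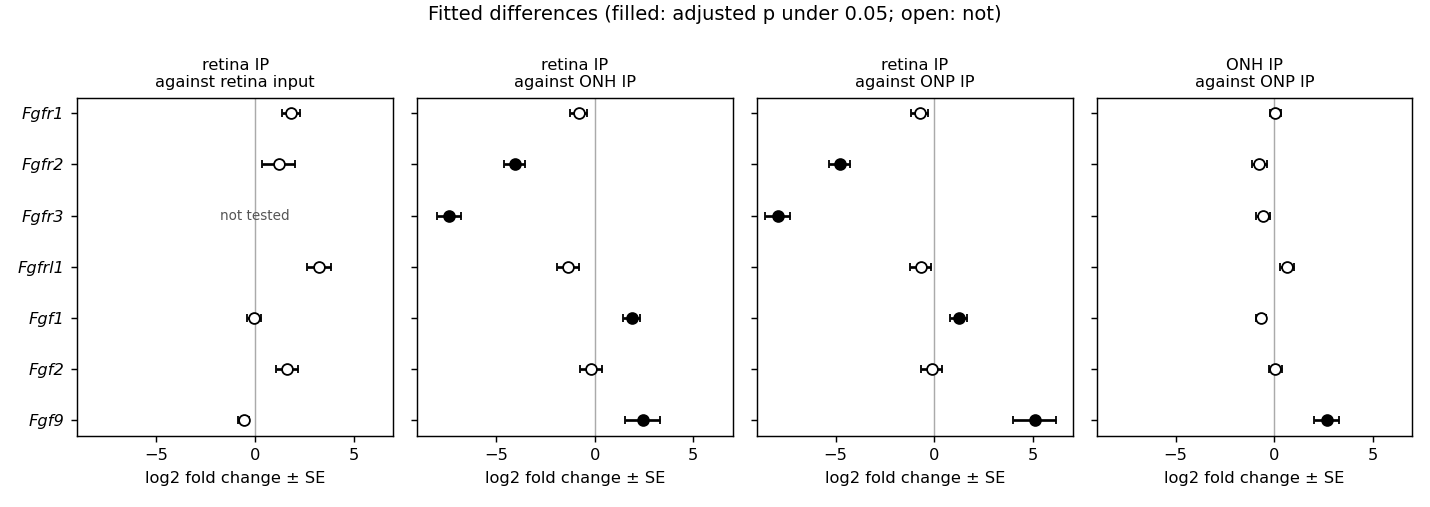
Fitted log2 fold change of each gene with its standard error in the 4 comparisons, the group named first over the group named second. Filled points passed at an adjusted p under 0.05. Fgfr2 and Fgfr3 lie left of -4 and Fgf1 and Fgf9 right of 1 in both comparisons of retina IP with the optic nerve.

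The enrichment of astrocyte RNA in the retina was addressed by setting retina IP against retina input. Fgfrl1, Fgfr1 and Fgf2 had the highest estimates, whereas Fgf1, Fgfr2 and Fgf9 lay nearer to or under input. None of the 6 members that could be tested passed, and edgeR called 0% of 15181 genes here. At an unadjusted p under 0.05, 22.1% of all genes tested passed either way and 11.7% of all genes tested passed and were higher in retina IP, and so did Fgfrl1, Fgfr1 and Fgf2. DESeq2 called these 3 members and 2161 of the 27961 genes it fitted.

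Fgfrl1 ranged from 6.08 to 44.1 CPM in retina IP and from 1.07 to 3.67 CPM with a median of 2.54 in retina input. All 6 IP libraries lay above all 6 input libraries. The log2 fold change was 3.24 (SE 0.591, adjusted p = 0.0570), and it passed without retina IP replicate 1 (adjusted p = 0.0322) or replicate 5 (adjusted p = 0.0395).

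Fgfr1 ranged from 28.6 to 73.0 CPM in retina IP and from 4.29 to 24.1 CPM with a median of 13.98 in retina input. Here too the groups did not overlap, and input replicates 1 and 2 were the lowest. The estimate, as a log2 fold change, was 1.83 (SE 0.438, adjusted p = 0.0581), and 1.47 (adjusted p = 0.0940) without those 2 input libraries. It passed without retina IP replicate 1 (adjusted p = 0.0454). Astrocyte markers moved the same way, with 10 of 11 tested higher in retina IP at an unadjusted p under 0.05 and a median log2 fold change of 2.41, against 0.02 over all genes. Markers of Muller glia, the radial glia of the retina, did so too, with 7 of 9 higher at that threshold and a median log2 fold change of 1.55. Their sums ranged from 9456 to 36944 CPM with a median of 24431 in retina IP, against 4043 to 21960 CPM with a median of 5980 in retina input. The same list had higher medians in ONH IP (46374 CPM) and ONP IP (36722 CPM), so its sum does not mark Muller glia alone. Rlbp1, a retinaldehyde-binding protein of Muller glia, had a mean of 1566 CPM in retina IP, against 495 CPM in retina input. Its means were 365 CPM in ONH IP and 122 CPM in ONP IP. Retina IP replicates 2, 3 and 4, which had the highest Fgfrl1 and Fgf2 levels, had the highest Muller glia sums as well as the highest astrocyte sums, and the part of Muller glia RNA in the Fgfr1, Fgfrl1 and Fgf2 differences was not tested.

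Fgf2 ranged from 6.97 to 36.9 CPM in retina IP and from 1.32 to 11.8 CPM with a median of 6.31 in retina input (1.64, SE 0.564, adjusted p = 0.108). The 3 lowest IP libraries overlapped the input range. Fgfr2 was low on both sides, from 2.01 to 18.2 CPM in retina IP and from 0 to 9.24 CPM in retina input (1.20, SE 0.855, adjusted p = 0.451). Fgfr3 fell under the filter on low counts, with 19 counts in retina IP and 6 in retina input, 4 input libraries being at 0.

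Fgf1 overlapped between the immunoprecipitate and whole retina. It ranged from 106 to 247 CPM in retina IP and from 79.1 to 312 CPM with a median of 283 in retina input (-0.04, SE 0.363, adjusted p = 0.968). Input replicates 1 and 2 had 90.1 and 79.1 CPM, while the other 4 input libraries had at least 282.2 CPM. With those 2 input libraries left out the estimate was -0.46 (adjusted p = 0.181). Fgf9 ranged from 17.8 to 50.1 CPM in retina IP and from 40.8 to 73.2 CPM with a median of 55.0 in retina input (-0.55, SE 0.275, adjusted p = 0.254). Retina IP replicates 2, 3 and 4, the libraries with the highest astrocyte marker sums, had 24.2, 34.1 and 17.8 CPM of Fgf9, and the other 3 had 47.0 to 50.1 CPM. Replicate 3 had more Fgf9 than replicate 2 at a higher astrocyte sum, 30494 against 20476 CPM.

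Within the optic nerve, the head was set against the nerve proper. Fgf9 was higher in ONH IP and was the only member called. Fgfr2, Fgf1 and Fgfr3 had lower estimates and Fgfrl1 a higher one in ONH IP, none past the test. Of all 16355 genes tested, 7.48% were called. The labels do not say that equal replicate numbers pair these libraries, but those of the same number deviated together. With the number as a block, edgeR called 4 members and 3118 of the 14799 genes tested in that fit. Fgfr2 was lower in ONH IP (-0.77, adjusted p = 0.00432), as were Fgf1 (-0.70, adjusted p = 0.0122) and Fgfr3 (-0.47, adjusted p = 0.0325). Fgfrl1 was higher (0.67, adjusted p = 0.0128). Fgf9 then missed the threshold (2.81, adjusted p = 0.0568).

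Fgf9 had 10.2 CPM in ONH replicate 7 and from 0.335 to 2.84 CPM in the other 6 ONH libraries, against 0 to 0.695 CPM in ONP IP. The groups overlapped, since ONH replicates 4 and 6 lay within the ONP range. The log2 fold change was 2.65 (SE 0.635, adjusted p = 0.0166). Within batch 1, without the bridging libraries, it was 2.22 (adjusted p = 0.0679). All 13 rod markers and 7 of 8 retinal pigment epithelium markers were called higher in ONH IP, where 4.43% of all genes were. Their median log2 fold changes were 4.09 and 5.05, and the part of either in the Fgf9 difference was not tested.

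Fgfr2 ranged from 87.0 to 216 CPM in ONH IP and from 198 to 325 CPM in ONP IP. Only ONH replicate 4 and ONP replicates 5 and 7 fell in the zone of overlap. Without the block the log2 fold change was -0.75 (adjusted p = 0.227), and within batch 1 it was -0.69 (adjusted p = 0.0260). Oligodendrocyte markers also had lower estimates in ONH IP, 2 of 12 called and 10 of 12 at an unadjusted p under 0.05, where 10.7% of all genes were lower.

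Fgfrl1 ranged from 40.3 to 89.0 CPM in ONH IP and from 35.7 to 48.4 CPM in ONP IP. The bridging ONH library alone overlapped the ONP range, and the other 6 ONH libraries had at least 61.4 CPM. Without the block the log2 fold change was 0.66 (adjusted p = 0.282), and within batch 1 it was 0.80 (adjusted p = 0.00164). Fgf1 overlapped between ONH IP and ONP IP (-0.66, adjusted p = 0.114 without the block) and passed when ONH replicate 4, the highest ONH library, was left out (adjusted p = 0.0207). Fgfr3 had -0.56 (adjusted p = 0.362) without the block. Fgfr1 at 0.05 (adjusted p = 0.944) and Fgf2 at 0.05 (adjusted p = 0.946) were near 0, and their signs turned with some libraries left out.

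Fgfr1, Fgfr3 and astrocyte markers varied together among the nerve libraries. In ONP IP, replicates 5, 6 and 4 had the 3 highest levels of Fgfr1, at 296, 223 and 164 CPM, and of Fgfr3, at 157, 103 and 63.0 CPM. They also had the 3 highest astrocyte marker sums of the region, at 41447, 31614 and 22420 CPM. In ONH IP, replicate 5 was highest for Fgfr1 at 257 CPM, for Fgfr3 at 98.5 CPM and for the astrocyte sum.

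Per kilobase of exon, which allows genes to be set side by side, Fgfr1 had a larger mean share of the receptor level in retina than in nerve. Of the summed level of Fgfr1 to Fgfr4, Fgfr1 made up 86.0% ± 6.16 in retina IP (SD, n = 6), 77.8% ± 21.8 in retina input (n = 6), 42.1% ± 5.86 in ONH IP (n = 7) and 29.1% ± 6.98 in ONP IP (n = 7). Fgfr2 made up 10.1% ± 4.55 in retina IP, 15.7% ± 17.3 in retina input, 39.6% ± 7.97 in ONH IP and 51.5% ± 13.1 in ONP IP. Fgfr3 added 0.307% ± 0.262 in retina IP and 0.363% ± 0.654 in retina input, against 17.3% ± 3.60 in ONH IP and 18.3% ± 6.23 in ONP IP. Retina input replicate 2 stood apart from the other retinal libraries, with 49.0% Fgfr2 and 38.4% Fgfr1, and it had 9.24 CPM of Fgfr2. That Fgfr1 share lay within the ONH range of 36.5% to 52.6%. The order of Fgfr1 and Fgfr2 in ONH IP depended on the length used: with the longest transcript in place of all exons, Fgfr2 made up 44.9% ± 8.36 and Fgfr1 40.3% ± 6.30. In ONP replicate 5, the library with the least oligodendrocyte RNA of its group, Fgfr1 and not Fgfr2 was the largest share, at 41.9% against 26.8%. Fgfr4, no member of the set, stayed under 5 CPM in every library.

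**Figure D3:**
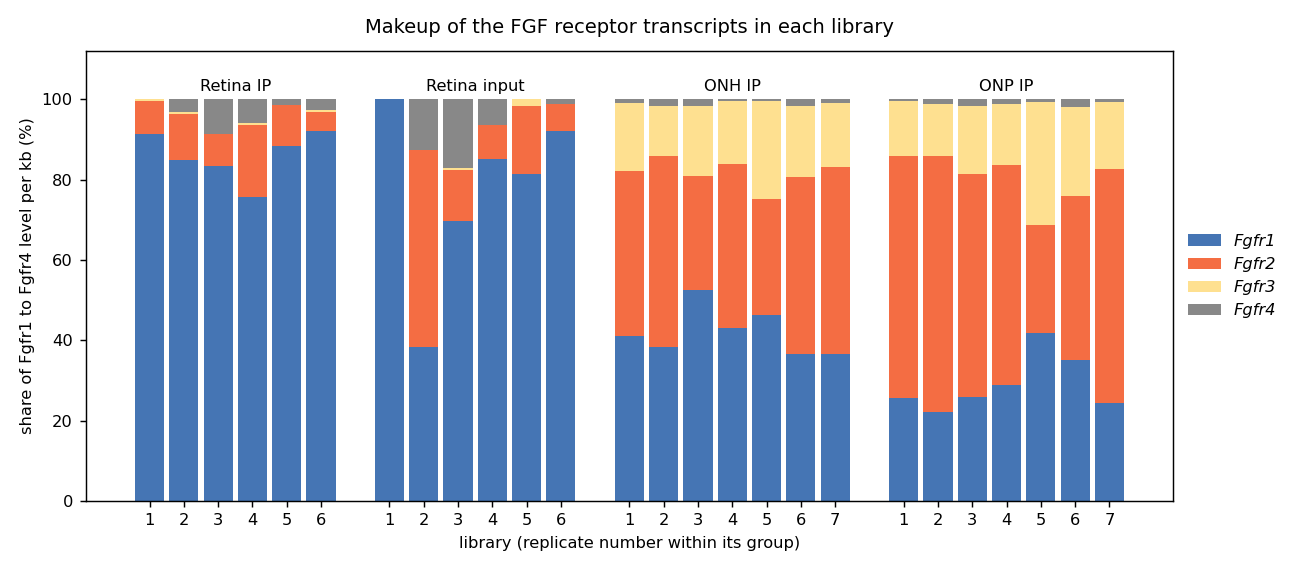
Share of each FGF receptor in the summed level per kilobase of Fgfr1 to Fgfr4, 1 bar per library, in percent. Fgfr1 takes 75.6% to 92.2% of the bar in the retina IP libraries, and 36.5% to 52.6% in ONH IP and 22.2% to 41.9% in ONP IP.

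Among the ligands, levels per kilobase kept Fgf1 on top in every group. Fgf1 averaged 37.5 ± 9.30 CPM per kilobase in retina IP, 40.8 ± 19.7 in retina input, 13.5 ± 6.28 in ONH IP and 21.2 ± 6.05 in ONP IP. Fgf9 came next in the retina, at 7.92 ± 2.93 in retina IP and 12.3 ± 2.69 in retina input, but had 0.562 ± 0.741 in ONH IP and 0.0682 ± 0.0603 in ONP IP, under Fgf2. Fgf2 averaged 2.57 ± 1.78 CPM per kilobase in retina IP, 0.895 ± 0.541 in retina input, 2.50 ± 0.310 in ONH IP and 2.43 ± 0.929 in ONP IP. None of the 15 other secreted FGF genes averaged 10 CPM in any group, the highest means being those of Fgf22 in retina IP (5.93 CPM), retina input (8.34 CPM) and ONP IP (4.72 CPM) and of Fgf3 in ONH IP (4.85 CPM).

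**Figure D4:**
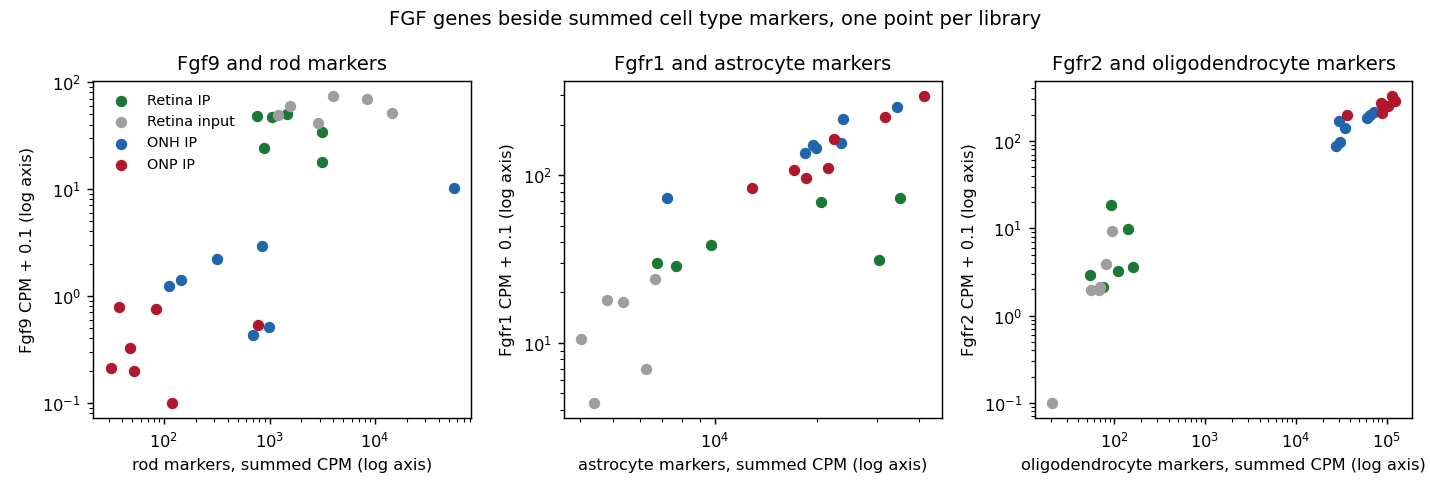
Level of Fgf9, Fgfr1 and Fgfr2 in each library against the summed level of rod, astrocyte and oligodendrocyte markers, on log axes. The ONH bridging library is the rightmost point of the rod panel, at 55531 CPM, and the optic nerve libraries lie apart from the retinal ones in the oligodendrocyte panel.

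The pathway around the 7 genes was read from 7 lists holding 98 genes of the table. Against the optic nerve, the intracellular FGF homologous factors, relatives of FGF that act on sodium channels in neurons, were higher in retina IP, all 4 of 4 called in both comparisons. Fgf12 averaged 138.7 CPM in retina IP, against 3.48 CPM in ONH IP (4.27, adjusted p = 3.49e-05) and 4.14 CPM in ONP IP (3.83, adjusted p = 9.41e-05), and Fgf13 averaged 112.6 CPM in retina IP, against 6.52 CPM in ONH IP (3.34, adjusted p = 0.00276) and 3.35 CPM in ONP IP (4.16, adjusted p = 0.000868). Calls for higher genes made up 12.7% of all tested against ONH IP and 12.9% against ONP IP. Co-receptors and adhesion partners of FGF receptors had 4 of 8 called higher and 0 lower in both comparisons, with L1cam, a neuronal adhesion molecule, at 88.9 CPM in retina IP, 2.57 CPM in ONH IP (4.38, adjusted p = 0.0162) and 2.70 CPM in ONP IP (4.13, adjusted p = 0.0277). Against retina input, where it averaged 297.9 CPM, Fgf12 had a negative estimate (-1.03, adjusted p = 0.0742).

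Of the FGF carriers and heparan sulphate genes, 9 of 23 were called lower and 2 higher in retina IP in both comparisons. Among all genes, 21.1% were called lower against ONH IP and 19.9% against ONP IP. The FGF carrier Fgfbp1 was among the lower ones. It fell under the filter on low counts in retina IP against input and entered these tests only through the optic nerve libraries. Its direction was therefore fixed, and its call adds no support to the count. Sdc4, a cell-surface heparan sulphate proteoglycan, averaged 103.7 CPM in retina IP, against 854.8 CPM in ONH IP (-2.67, adjusted p = 0.00114) and 714 CPM in ONP IP (-2.44, adjusted p = 0.00149). Sulf2, which trims sulphate groups from heparan sulphate, averaged 15.4 CPM in retina IP, against 74.6 CPM in ONH IP (-2.26, adjusted p = 0.00681) and 171 CPM in ONP IP (-3.46, adjusted p = 0.000151). Of the adaptors and Ras-MAPK genes, 1 of 24 was called higher and 4 lower against ONH IP, and 1 higher and 7 lower against ONP IP. Nras, a Ras GTPase, averaged 22.6 CPM in retina IP, 198 CPM in ONH IP (-2.79, adjusted p = 8.97e-06) and 225 CPM in ONP IP (-2.99, adjusted p = 1.84e-06).

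Feedback inhibitors and target genes were mixed. Of 11 feedback genes, 1 was called higher and 2 lower against ONH IP, and 2 higher and 2 lower against ONP IP. Spry4, a Sprouty inhibitor of the cascade, averaged 18.6 CPM in retina IP, against 12.9 CPM in ONH IP (1.45, adjusted p = 0.0182) and 7.39 CPM in ONP IP (2.23, adjusted p = 0.00120), while Spry2 had a mean of 4.43 CPM in retina IP, against 11.2 CPM in ONH IP (-2.56, adjusted p = 0.00332). Lgals3, also called lower, encodes galectin-3 and is not known as an FGF feedback inhibitor, although the list held it. Of 10 target genes, Etv5 and Egr1 were called higher in both comparisons, Ccnd1 lower in both, and Myc lower against ONP IP (-1.63, adjusted p = 0.00647). These counts stand beside 12.7% of all genes called higher and 21.1% called lower against ONH IP, and 12.9% and 19.9% against ONP IP. Etv5, a transcription factor induced by FGF signalling, averaged 294.9 CPM in retina IP, against 59.3 CPM in ONH IP (3.04, adjusted p = 0.00224) and 57.6 CPM in ONP IP (3.05, adjusted p = 0.00188). It averaged 72.0 CPM in retina input (2.16, adjusted p = 0.0701). Its retinal IP libraries ranged from 82.6 to 632 CPM. Ccnd1, the cell cycle gene cyclin D1, averaged 21.0 CPM in retina IP, 405.7 CPM in ONH IP (-2.91, adjusted p = 2.99e-05) and 220.1 CPM in ONP IP (-2.10, adjusted p = 0.000470).

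Several of these calls rested on the bridging libraries and on the fit. Within batch 2 only, 19 of the 21 pathway genes singled out against ONH IP no longer passed, and 12 of the 20 against ONP IP, and with only the 2 groups compared 14 of 21 and 3 of 20 no longer passed. Without ONP replicate 7, 10 of the 21 no longer passed against ONH IP (adjusted p = 0.0565 to 0.290), L1cam, Fgf13 and Spry4 among them, and 12 of the 20 against ONP IP (adjusted p = 0.0623 to 0.279), L1cam, Sdc4, Egr1 and Ccnd1 among them. Without ONH replicate 7, 5 of 21 no longer passed against ONH IP (adjusted p = 0.0518 to 0.157), Spry4, Egr1 and Sulf2 among them, and 2 of 20 against ONP IP, of which L1cam was 1 (adjusted p = 0.0516). Etv5, Nras, Fgf12 and Lgals3 passed in both comparisons with each library left out.

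**Figure D5:**
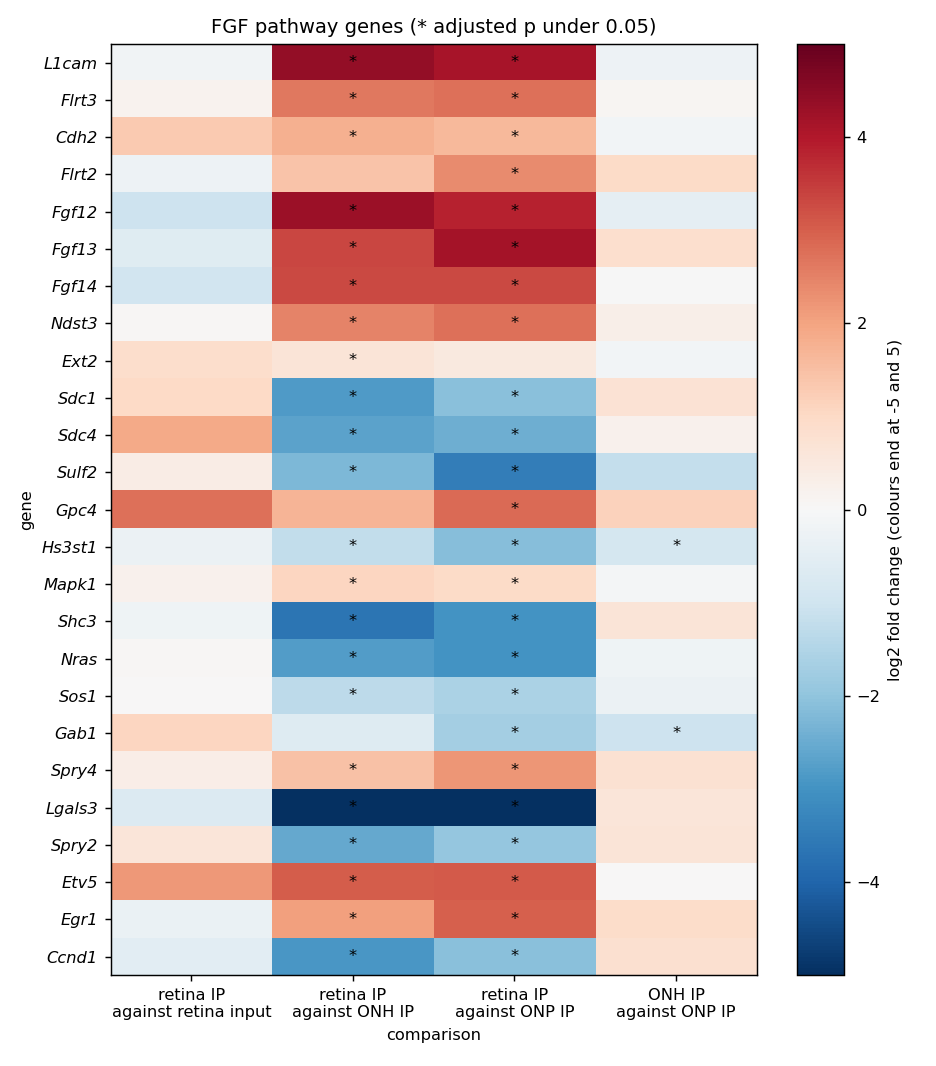
Log2 fold change of the pathway genes singled out in either comparison of retina IP with the optic nerve, in all 4 comparisons, as colour from -5 to 5, with an asterisk at an adjusted p under 0.05. Fgf12, Fgf13 and Fgf14 are red in both comparisons with the optic nerve, and Sdc4, Sulf2, Nras and Ccnd1 are blue.

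Between ONH IP and ONP IP, 3 genes of the lists were called, all lower in ONH IP, where 3.04% of all genes tested were. They were 2 of 24 adaptors and Ras-MAPK genes and 1 of 23 carriers and heparan sulphate genes. The lists together held 98 genes of the table, so the count is near the share over all genes. Gab1, a docking protein of receptor tyrosine kinases, averaged 107.6 CPM in ONH IP and 221 CPM in ONP IP (-1.05, adjusted p = 0.0342). Hs3st1, a heparan sulphate sulphotransferase, averaged 64.2 CPM in ONH IP and 117 CPM in ONP IP (-0.89, adjusted p = 0.0377). Crkl, an adaptor, had -0.53 (adjusted p = 0.0425). Over the 20 fits that leave out 1 IP library each, Gab1 passed in 11 and Hs3st1 and Crkl in 9 each, with adjusted p up to 0.101. All 3 missed the threshold with no filter on low counts, Hs3st1 and Crkl without the batch term, and Crkl in the fit of all 26 libraries. In retina IP against input, where no gene was called, the FGF carriers and heparan sulphate genes had 21 of 22 estimates above 0 and a median log2 fold change of 0.75, against 0.02 over all genes. Spry1, a Sprouty inhibitor, averaged 16.9 CPM in retina IP, against 3.29 CPM in retina input (2.51, adjusted p = 0.0597), and Dusp6, a MAPK phosphatase induced by FGF, 52.3 CPM in retina IP, against 22.1 CPM in retina input (1.36, adjusted p = 0.0727).

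The genes closest in pattern were those with the smallest root mean square difference from a member in mean-centred log2(CPM + 1) over the 26 libraries, out of 9780 genes averaging at least 10 CPM. For Fgfr3 they were Msx1 (0.39), Cd109 (0.41) and Rfx4 (0.44), which averaged 0.0889, 0.322 and 0.138 CPM in retina IP. For Fgfr2 they were Litaf (0.57), Rhog (0.65) and Slc44a1 (0.70), and for Fgfr1 Soat1 (0.42), Ttyh1 (0.44) and Ndst1 (0.44). Fgfrl1 was closest to Fam181b (0.42), Ddo (0.42) and Cnn3 (0.45). Among the ligands, Fgf9 was closest to Gpr22 (0.47), Akain1 (0.50) and Crabp1 (0.51), Fgf1 to Usp15 (0.36), and Fgf2 to Cd164 (0.36). The members' own root mean square deviation from their mean was 2.85 for Fgfr3 and Fgfr2, 2.40 for Fgf9, 1.75 for Fgfrl1 and 1.58 for Fgfr1, but 0.85 for Fgf1 and 0.87 for Fgf2, so a small distance says less for those 2 ligands.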

How the data were processed

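The tool named in the submitters' processing notes is Salmon 1.6.0 and the genome build mm10. The annotation is not given in the sources used here. The deposited table holds the authors' estimated count per gene, and all values were whole numbers. CPM were computed with TMM factors in edgeR 4.0.16 (R 4.3.3). Tests were edgeR's quasi-likelihood F test after filterByExpr (minimum count 10, minimum total 15), on the 12 retinal libraries for retina IP against input and on the 20 IP libraries with a batch term for the others. The batch term is estimable only through the 2 bridging libraries. Exon lengths came from GENCODE M21. The tests were tried on simulated counts with 100 genes changed 2-fold and 100 changed 4-fold. They called 1 and 35 of these in retina IP against input, and 5 and 43 against ONH IP. Against ONP IP they called 10 and 46, and in ONH IP against ONP IP 40 and 71. A gene that did not pass may therefore still differ by such amounts. Same-numbered ONH and ONP libraries deviated together (r = 0.125 to 0.543 in all 7 pairs, 6 of 7 correlating best with their own number). Retina IP and input did so less evenly (r = -0.160 to 0.288, 4 of 6 best with their own number). The labels state neither pairing. Pathway genes were named by size, at most 3 called genes per list and direction averaging at least 10 CPM. The members, lists and tests were chosen with earlier results of these data known. Alternatives included DESeq2 1.42.0, RLE factors, no filter, single batches, the replicate block and each library left out.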

Additional observations from a re-analysis of the deposited data

Results flagged for a closer look

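Of 28 levels (7 genes in 4 groups), 3 held a library far from the others of its group, by a rule that chance meets in about 1 of 20 groups. Fgf9 in ONH replicate 7, the bridging library, was 10.2 CPM, against 0.335 to 2.84 CPM in the other 6. Rod markers summed to 55531 CPM and pigment epithelium markers to 3122 CPM in that library, and the part of either was not tested. Fgf1 in retina IP replicate 3 was 106 CPM, against 205 to 247 CPM in the other 5. Fgfr3 in retina input replicate 5 was 0.251 CPM, against 0 to 0.0615 CPM in the other 5, all within a total of 6 counts.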

How the results depend on the processing

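Fgfr2 and Fgfr3 stayed lower in retina IP than in ONH and ONP IP under every setting tried, and only Fgfr2 against ONH IP lost its call, within batch 2. The number of genes called moved most. For retina IP against input it was 0, and 193 with no filter, 2161 by DESeq2, 2871 in one fit of all 26 libraries and 49 without input replicates 1 and 2 (an alternative chosen after seeing the data), with 0 to 381 over the single libraries left out; members called were 0, against 1, 3 and 3 in the first 3 of these settings and 0 to 2 over single libraries. For retina IP against ONH IP it was 5532, and 3596 with all 26 libraries, 9454 with a replicate block, 8465 without the batch term, 818 in batch 2 only, 2069 with only the 2 groups and 2984 to 6027 over single libraries. Members called there were 4, but 6 with the block, 6 without the batch term, 3 with no filter, 1 in batch 2 only, 2 with only the 2 groups and 3 to 5 over single libraries. For retina IP against ONP IP it was 5371, and 9699 with the block, 8851 without the batch term, 1690 in batch 2 only and 2155 to 5741 over single libraries. Members called were 4, but 6 with the block, 6 without the batch term, 3 with all 26 libraries, in batch 2 only and with only the 2 groups, and 2 to 4 over single libraries. For ONH IP against ONP IP it was 1223, and 2042 by DESeq2, 511 with all 26 libraries, 3118 with the block, 2445 in batch 1 only, 2294 with only the 2 groups and 601 to 1566 over single libraries. Members called were 1, against 4 with the block, 2 in batch 1 only, 3 with only the 2 groups and 1 to 2 over single libraries. The fits tested different numbers of genes. With the block and without the batch term, 16355 genes were tested for retina against nerve. The 6 members called there stood beside 9454 and 8465 of these genes against ONH IP, and 9699 and 8851 against ONP IP. In ONH IP against ONP IP, 14799 genes were tested with the block and with only the 2 groups, and 14753 in batch 1 only. The cause of these shifts was not tested. Signs turned for Fgf1 in retina IP against input with the block (0.12, and -0.26 to 0.11 over single libraries). They turned for Fgf2 against ONH IP without the batch term (0.072), in batch 2 only (0.32) and with only the 2 groups (0.18), with -0.57 to 0.13 over single libraries, and against ONP IP with the block (0.042) and without the batch term (0.11), with -0.46 to 0.29. In ONH IP against ONP IP, single libraries moved Fgf2 between -0.034 and 0.22 and Fgfr1 between -0.070 and 0.27. Ext2, a heparan sulphate polymerase, turned against ONH IP with the block (-0.0732). In retina IP against input it is not settled whether the numbers pair the libraries. Of 6 retina IP libraries, 4 correlated best with the input of their own number, and the block called 0 members. Fgf9 in ONP IP rests on 33 counts and Fgfr3 in retina IP on 19, which limits their levels.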
